A study of Mus musculus with 3 samples.

Results

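Axon guidance genes were followed in mouse yolk sac cells that display VE-cadherin, a junction protein of endothelium, together with CD45, a leukocyte protein, with and without forced expression of Etv2. Etv2 is a member of the ETS family of transcription factors and starts endothelial and blood cell development. The members are the array probes named for semaphorins and their plexin receptors, ephrins and their Eph receptors, Slits and Robo receptors, and netrins and Unc5 receptors, chosen by gene name alone. They comprised 86 probes of 67 genes, among 36156 distinct gene names on the array. Cells were sorted for both proteins. The control group was 1 sample, labelled as yolk sac of control embryos at E10.5. The Tie-2-Etv2 group was 2 samples, replicates 1 and 2, from yolk sac of embryos in which a Tie-2 Cre transgene turned on an Etv2 transgene; no day is given for them. All were of a mixed strain (B6/CBA and others), and whether the control embryos carried either transgene is not stated. Tie-2 is active in endothelial and blood-forming cells, so the transgene is not limited to 1 lineage within the sort. Nothing in the labels says that the replicates came from separate litters, so a p-value reflects no more than the spread among these samples, and that spread may be technical.

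These families were named for steering growing axons and also act in vessels and blood cells. Semaphorins signal through plexins, often with neuropilins as co-receptors, and usually repel or collapse the receiving cell's edge. Ephrins and Eph receptors are both anchored to membranes, so they signal at cell contacts and in both directions, and ephrin-B2 with EphB4 marks arterial and venous endothelium. Slits bind Robo receptors, of which Robo4 is the endothelial member, and netrins bind Dcc and Unc5 receptors.

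Each sample was read on its own array, all on 1 slide in 1 scan. Between 24218 (replicate 1) and 27014 (replicate 2) probes were well above background per array. Levels below are log2 signal relative to the array's 75th percentile, which was 1199 intensity units on replicate 1 against 2073 on the control and 2092 on replicate 2. A level compares arrays for 1 probe and does not rank different genes. Both genes of the sort were well above background on every array: Ptprc, which encodes CD45, lay between -1.58 and -1.08, and Cdh5, which encodes VE-cadherin, was at -4.08 in the control, 0.39 on replicate 1 and -1.48 on replicate 2. The mean of the transgenic arrays exceeded the control 14.1-fold for Etv2.

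Of the 67 genes, 46 were tested because a probe was well above background either in the control or on each of the Tie-2-Etv2 arrays, and 35 of these were above background on all 3. A further 18 genes were above background on no array: Epha3, Epha4, Epha6, Epha8, Epha10, Ntn1, Ntn4, Ntn5, Plxnb1, Robo2, Sema3a, Sema3c, Sema3d, Sema3e, Sema4f, Unc5c, Unc5cl and Unc5d. The other 3, Ntn3, Sema5a and Slit1, were above background on replicate 2 alone. Among the tested genes, 5 exceeded the control at least 2-fold in both Tie-2-Etv2 arrays (Robo3, Slit2, Robo4, Epha2 and Plxnd1), against 3.17% of all 19583 genes tested. Another 4 were at least 2-fold lower in both (Ephb1, Plxnb2, Sema3b and Sema4a), against 5.15% of all genes. As shares of the 46, these are 10.9% and 8.7%. The remaining 37 met neither criterion. The median log2 difference was 0.27 for the tested members and 0.07 for all genes tested. In these counts a value not above background was raised to the lowest level among detected probes of its array, and with normexp, another background correction, the counts were 2 (Slit2 and Plxnd1) and 2 (Plxnb2 and Sema4a). Robo3, Plxna4, Sema5b and Epha7 entered the test through the Tie-2-Etv2 arrays alone, so the filter set their direction. Ephb1, Efna2 and Efna5 were detected in the control alone, so it set theirs too. Sema3b, Plxna3, Sema3f and Sema6a also passed only through the control, being above background on a single Tie-2-Etv2 array. For them the filter favoured a lower value. Among the 35 members detected on every array, 4 (11.4%) were higher and 2 (5.71%) lower by this criterion, against 2.91% and 3.44% of the 17228 genes detected on every array. In sorted bulk samples such as these, fewer cells of a type and less RNA per cell cannot be told apart.

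In limma's test over all 26217 probes no member and no other probe passed an adjusted p of 0.05 (0%), and the smallest adjusted p was 0.199. Without adjustment, limma gave a p under 0.05 for 864 higher genes (4.41%) and 1246 lower genes (6.36%). Members among them were 5 higher and 5 lower. Of the higher ones, Robo3, Sema5b and Epha7 had their direction set by the filter, and Slit2 and Slit3 did not. Of the lower ones, Ephb1 and Efna2 had their direction set by it. Sema3b passed through the control alone, which favoured a lower value, and Plxnb2 and Sema4a were detected on every array. Values not above background enter these p-values as measured. With 1 control array the spread comes from the Tie-2-Etv2 pair alone, and an exact permutation test could not give a p below 0.333.

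**Figure D1:**
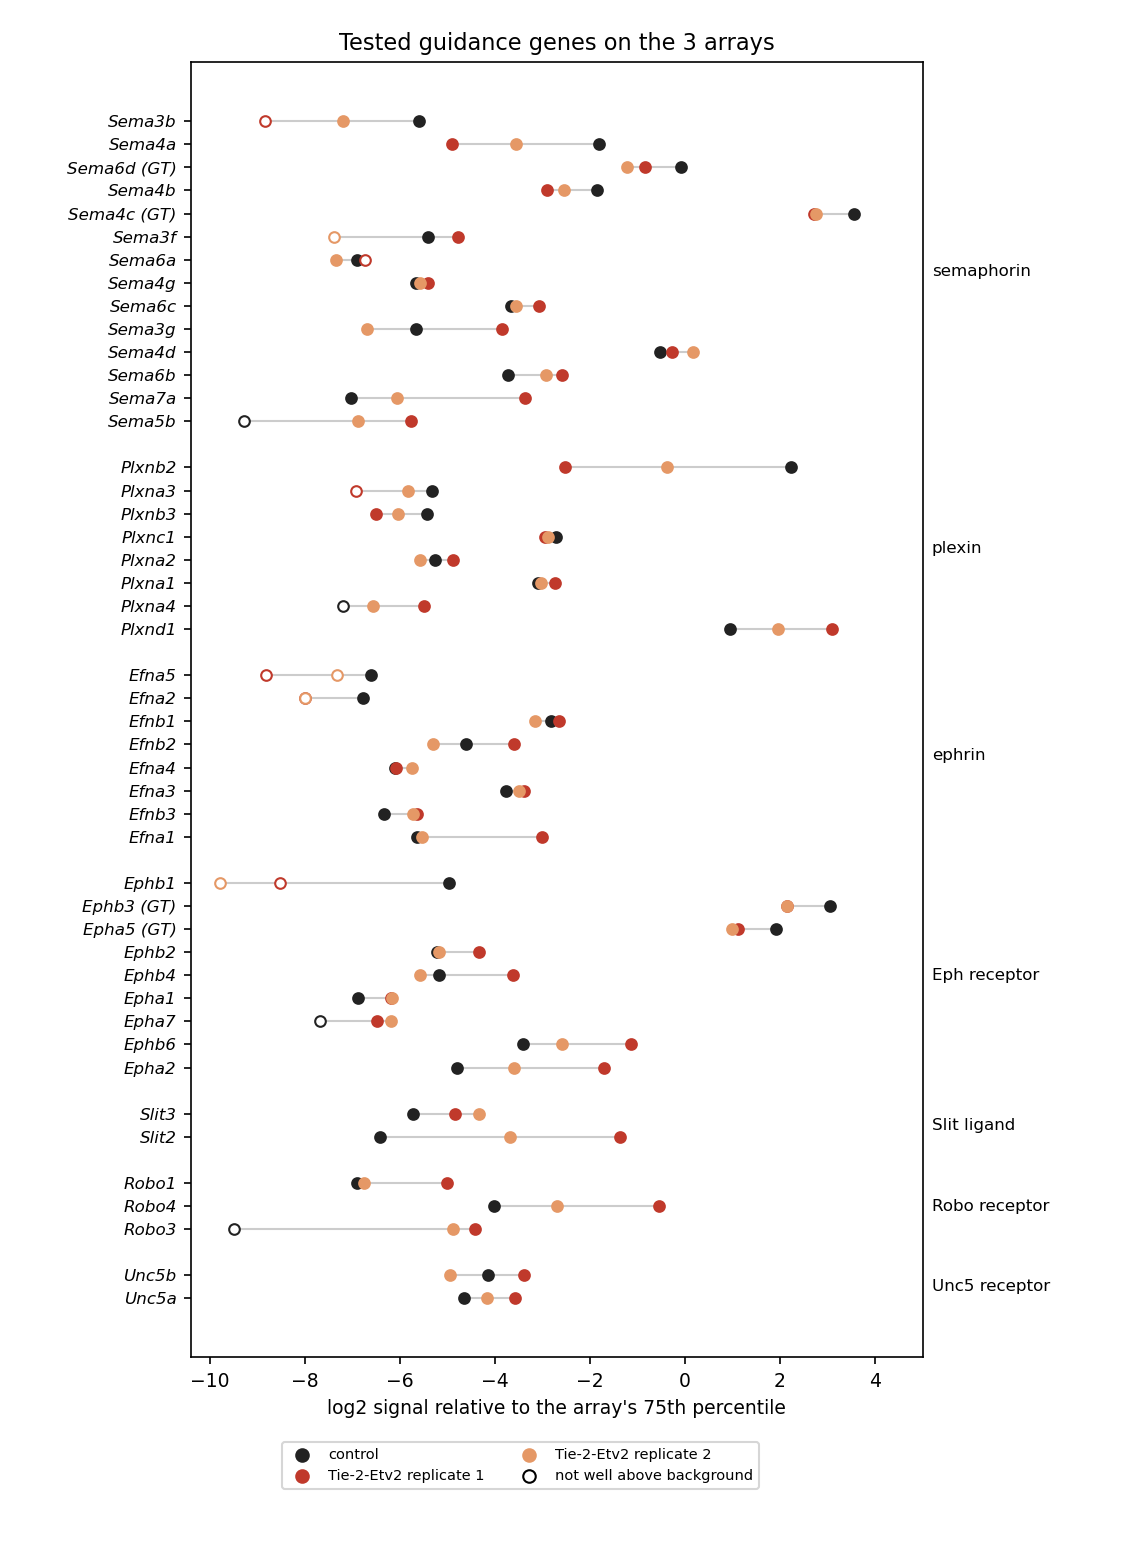
Level of the 46 tested guidance genes on the control (black), Tie-2-Etv2 replicate 1 (red) and replicate 2 (orange) arrays, as log2 signal relative to the array's 75th percentile, grouped by family; open circles are values not well above background and (GT) marks probes with a GT repeat. Slit2, Robo4 and Epha2 lie to the right of their control on both Tie-2-Etv2 arrays and Plxnb2 and Sema4a to the left.

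Etv2 belongs to the ETS factors, which bind DNA at a GGAA core. The 250 bases before the annotated start are shown for the 5 members that were 2-fold higher in both arrays, from the RefSeq promoter table of build GRCm38.p6, 5′ to 3′ along the gene, with each GGAA or its complement TTCC in capitals. The windows are chr9:37401722-37401971 on the plus strand for Robo4, chr9:37433176-37433425 on the minus strand for Robo3, chr5:47982905-47983154 on the plus strand for Slit2, chr6:115995006-115995255 on the minus strand for Plxnd1 and chr4:141300971-141301220 on the plus strand for Epha2.
Robo4: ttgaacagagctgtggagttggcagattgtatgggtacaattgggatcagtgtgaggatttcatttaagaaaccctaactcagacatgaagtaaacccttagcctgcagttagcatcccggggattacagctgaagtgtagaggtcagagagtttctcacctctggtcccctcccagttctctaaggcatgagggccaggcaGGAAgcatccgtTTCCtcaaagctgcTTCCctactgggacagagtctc
Robo3: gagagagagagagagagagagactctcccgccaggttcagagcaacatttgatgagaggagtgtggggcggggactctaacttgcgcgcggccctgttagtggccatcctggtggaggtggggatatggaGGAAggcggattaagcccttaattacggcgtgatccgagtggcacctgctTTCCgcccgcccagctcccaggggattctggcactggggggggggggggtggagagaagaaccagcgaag
Slit2: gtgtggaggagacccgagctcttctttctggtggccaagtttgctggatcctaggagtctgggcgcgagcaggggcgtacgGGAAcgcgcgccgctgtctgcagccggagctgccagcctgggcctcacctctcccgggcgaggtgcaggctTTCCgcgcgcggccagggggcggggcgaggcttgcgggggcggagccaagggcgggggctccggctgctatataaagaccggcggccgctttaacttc
Plxnd1: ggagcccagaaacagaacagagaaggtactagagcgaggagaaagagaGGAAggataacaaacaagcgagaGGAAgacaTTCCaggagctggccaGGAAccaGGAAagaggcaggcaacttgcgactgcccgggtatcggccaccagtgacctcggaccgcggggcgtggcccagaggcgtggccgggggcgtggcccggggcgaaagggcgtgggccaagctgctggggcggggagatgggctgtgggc
Epha2: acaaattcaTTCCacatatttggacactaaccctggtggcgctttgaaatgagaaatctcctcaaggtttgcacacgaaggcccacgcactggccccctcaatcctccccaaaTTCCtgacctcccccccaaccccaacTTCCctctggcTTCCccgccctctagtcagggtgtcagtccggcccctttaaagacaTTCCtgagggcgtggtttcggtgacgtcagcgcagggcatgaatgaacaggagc
On either strand the GGAA core stood 5 times in the Epha2 and Plxnd1 windows, 3 times in that of Robo4 and 2 times in those of Slit2 and Robo3. Nearly every promoter holds this short core: it was in 93.4% of 32851 windows of this length and in 50 of 54 windows of tested members. The longer AGGAAG, which contains the core, was in the Robo4, Robo3 and Plxnd1 windows. It was also in 19 of 54 windows of tested members (35.2%) and in 29.5% of all windows. CGGAAG, which also contains the core, was in 0 of the 5 windows shown. It was in 3 of 54 windows of tested members (5.56%) and in 13.6% of all. For the lower members the table held 7 windows of Ephb1, Plxnb2 and Sema4a, of which 7 held GGAA, 2 AGGAAG and 1 CGGAAG. A match is a description of letters and not a binding site.

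Of the 5 members that were 2-fold higher in both arrays, 3 were Slit or Robo genes: Slit2, Robo4 and Robo3. The filter set the direction of Robo3, and of these genes only Slit2 met the 2-fold criterion under normexp. Robo3, a Robo receptor best known from axons that cross the midline, was not above background in the control, at -9.50, and was detected at -4.43 on replicate 1 and -4.88 on replicate 2. It was at least 5.96-fold higher in the Tie-2-Etv2 mean, with bounds of 6.96-fold (replicate 1) and 5.10-fold (replicate 2). These bounds set the mean over the lowest level at which any probe was detected on the control array. Under normexp its log2 difference was 1.48, a 2.80-fold higher mean, which is smaller than each of these bounds. It then did not reach 2-fold on replicate 2. Both Tie-2-Etv2 values lay above the control's lowest detected level and close to each other.

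Slit2, a secreted ligand of Robo receptors, was at -6.42 in the control, -1.36 on replicate 1 and -3.68 on replicate 2. It was 33.2-fold and 6.64-fold higher on these arrays, a log2 difference of 3.89 ± 1.06 (SE, adjusted p = 0.358 in limma), which was 2.42 under normexp. Robo4, the receptor that helps keep vessels stable and sealed, was at -4.02 in the control, -0.55 on replicate 1 and -2.70 on replicate 2. It was 11.1-fold and 2.50-fold higher, a log2 difference of 2.40 ± 0.99 (SE, adjusted p = 0.540 in limma). Under normexp Robo4 was 0.99 above the control on replicate 2, short of 2-fold. For both genes each Tie-2-Etv2 array was above the control, replicate 1 by much more.

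Slit3, another Robo ligand, was at -5.72 in the control, -4.84 on replicate 1 and -4.34 on replicate 2, so here replicate 2 was the further from the control. Robo1, the broadly expressed receptor, was at -6.91, -5.01 and -6.76 in that order of arrays, higher by 3.72-fold and 1.11-fold. Robo2 was above background on no array with either of its 2 probes, and Slit1 was above background on replicate 2 alone. On mm9, the genome build named in the file headers, the Robo3 probe lies on the minus strand of chromosome 9 at 37224357 to 37224416 and the Robo4 probe on the plus strand at 37221547 to 37221606. Between these probes lie 2750 bases, and Robo3 is the gene listed next after Robo4 in the RefSeq table of GRCm38.p6. The gene starts lie further apart than the probes. On that build the windows before them are at 37401722 to 37401971 for Robo4 and 37433176 to 37433425 for Robo3. Shared regulation of these genes was not tested. Of 24 spots within 2 rows and columns of the Robo3 probe, 0 were detected on both Tie-2-Etv2 arrays and not in the control. Over all spots that share was 1.38%, so 0 among 24 says little.

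Among receptors of semaphorins, Plxnd1 was the plexin above the control and Plxnb2 the one below it by 2-fold or more in both arrays. Plxnd1, the endothelial plexin that patterns vessels and binds Sema3e, was at 0.95 in the control, 3.104 on replicate 1 and 1.96 on replicate 2. It was 4.46-fold and 2.02-fold higher, a log2 difference of 1.58 ± 0.59 (SE, adjusted p = 0.495 in limma). Its second probe, 6361 bases into the transcript against 6847 for the first, gave a log2 difference of 1.29 ± 0.40 (SE). Both Plxnd1 probes thus differed in the same direction on both arrays. Sema3e, its secreted ligand, was above background on no array.

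Plxnb2, a receptor of class 4 semaphorins found on macrophages and many epithelia, was at 2.23 in the control, -2.53 on replicate 1 and -0.38 on replicate 2. It was 27.1-fold and 6.13-fold lower, a log2 difference of -3.69 ± 0.99 (SE, adjusted p = 0.351 in limma). Among members detected on all 3 arrays no other lay as far below the control. Of the other plexins, Plxna1 and Plxna2, which pair with neuropilins, had log2 differences of 0.22 and 0.04, each smaller than its standard error (0.34 and 0.44). Plxna3 was at -5.33 in the control and -5.83 on replicate 2 and was not above background on replicate 1. There it was at least 2.84-fold lower in the main processing. Plxnb3 was 2.08-fold and 1.52-fold lower. Under normexp Plxna3, its undetected value raised to the lowest detected level, differed from the control by 0.04 on replicate 1 and -0.25 on replicate 2. Plxnb3 then differed by 0.20 and -0.23. The direction of both on replicate 1 thus depended on the background correction. Plxna4, another partner of neuropilins, was not above background in the control, at -7.21, and was at -5.49 on replicate 1 and -6.56 on replicate 2. It was at least 2.26-fold higher in their mean, but the bound on replicate 2 was 1.56-fold, and its log2 difference under normexp was 0.53. Plxnc1, the receptor of Sema7a on leukocytes, had 2 tested probes that differed in sign. The one of higher level was at -2.73 in the control, -2.95 on replicate 1 and -2.88 on replicate 2, and the other at -4.44, -3.80 and -4.26, giving log2 differences of -0.18 and 0.41 with standard errors of 0.32 and 0.38, so no direction can be given for it.

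Among the semaphorins themselves, 14 of 20 genes were tested, 0 were 2-fold higher in both arrays and 2 were 2-fold lower. Sema4a, a membrane semaphorin of dendritic cells and macrophages, was at -1.82 in the control, -4.91 on replicate 1 and -3.55 on replicate 2. It was 8.50-fold and 3.32-fold lower, a log2 difference of -2.41 ± 0.67 (SE, adjusted p = 0.365 in limma). Sema3b, a secreted semaphorin, was at -5.59 in the control and -7.20 on replicate 2 and was not above background on replicate 1. Replicate 2 was thus 3.05-fold lower, and replicate 1 was lower by at least 2.35-fold. For both genes every Tie-2-Etv2 value lay under the control in the main processing. Under normexp Sema4a was still 2-fold lower on both arrays, while Sema3b had a log2 difference of -0.17, a 1.13-fold lower mean. With its undetected value raised to the lowest detected level, Sema3b then differed from the control by 0.12 on replicate 1 and -0.41 on replicate 2. Its direction on replicate 1 thus depended on the background correction.

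Sema7a, a lipid-anchored semaphorin that acts on leukocytes, was at -7.04 in the control, -3.38 on replicate 1 and -6.06 on replicate 2. Its folds over the control, 12.7 and 1.97, put it just outside the 2-fold criterion, as Plxnd1 at 2.02 on replicate 2 was just inside. Sema5b, detected on both Tie-2-Etv2 arrays and not in the control, was higher by at least 2.77-fold and 1.28-fold. Sema6b was 2.20-fold and 1.72-fold higher, and Sema4b, a class 4 membrane semaphorin, was 2.07-fold and 1.61-fold lower. Sema3f and Sema3g, secreted class 3 semaphorins, went opposite ways on the replicates: on replicate 1 Sema3g was 3.54-fold and Sema3f 1.55-fold higher, while on replicate 2 Sema3g was 2.03-fold lower and Sema3f, not above background there, at least 3.97-fold lower. Sema4d, which is made by T cells and platelets among others, was at -0.53 in the control, -0.27 on replicate 1 and 0.17 on replicate 2. Sema4g, Sema6a and Sema6c had log2 differences of 0.16, -0.14 and 0.34, each within its standard error (0.33, 0.42 and 0.38), Sema6a being not above background on replicate 1.

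Of 14 Eph receptor genes 9 were tested, 1 of them 2-fold higher in both arrays and 1 lower. Epha2, a receptor of vascular and epithelial cells that binds ephrin-A1, was at -4.80 in the control, -1.71 on replicate 1 and -3.60 on replicate 2. It was 8.47-fold and 2.30-fold higher, a log2 difference of 2.14 ± 0.88 (SE, adjusted p = 0.539 in limma). Under normexp it was 0.77 above the control on replicate 2, short of 2-fold. Efna1, which encodes that ligand, was at -5.64, -3.01 and -5.53 on the same arrays. Efna1 thus lay 6.19-fold above the control on replicate 1 but next to it, at 1.08-fold, on replicate 2.

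Ephb1, a receptor of B-type ephrins, was detected on the control array alone, at -4.98. It was at least 4.63-fold lower in the Tie-2-Etv2 mean, with bounds of 3.61-fold (replicate 1) and 5.92-fold (replicate 2; adjusted p = 0.235 in limma). Under normexp its log2 difference was -0.72, a 1.65-fold lower mean. That is smaller than each of these bounds and does not meet the 2-fold criterion. Of the 24 spots around its probe, 2 (8.33%) were also detected on the control array alone, against 1.54% of all spots. As many, 2 (8.33%), were detected on both Tie-2-Etv2 arrays and not in the control, against 1.38% of all spots. The part of position on the array in these shares was not tested. Ephb4, the venous receptor, was at -5.19 in the control, -3.62 on replicate 1 and -5.58 on replicate 2. Efnb2, its arterial ligand, was at -4.62, -3.61 and -5.30 on the same arrays. Both were above the control on replicate 1 and below it on replicate 2.

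Ephb6, an Eph receptor without kinase activity, was 4.81-fold and 1.75-fold higher. Ephb2 was 1.86-fold and 1.04-fold higher, and Epha1 was 1.61-fold and 1.65-fold higher. Epha7 was above background on both Tie-2-Etv2 arrays and not in the control, and was at least 1.86-fold higher in their mean. All 8 ephrin genes were tested and 0 met the 2-fold criterion. Efna2 and Efna5 were detected in the control alone, at -6.78 and -6.62, close to the lowest detected level of that array (-7.23). In the main processing their bounds were at least 1.33-fold and 1.37-fold lower. Under normexp their log2 differences were 0.11 and 0.08, so their direction depended on the background correction. Efna3, Efna4, Efnb1 and Efnb3 had log2 differences of 0.33, 0.18, -0.08 and 0.65.

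Netrin probes were at or under background. None of the 4 netrin genes was tested, and Ntn3 was above background on replicate 2 alone, at -6.94. Unc5b, the endothelial netrin receptor, was at -4.14 in the control, -3.39 on replicate 1 and -4.95 on replicate 2, so its replicates lay on either side of the control. Unc5a was 2.09-fold and 1.38-fold higher. Unc5cl matches the name pattern but encodes a related protein that is not a netrin receptor.

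**Figure D2:**
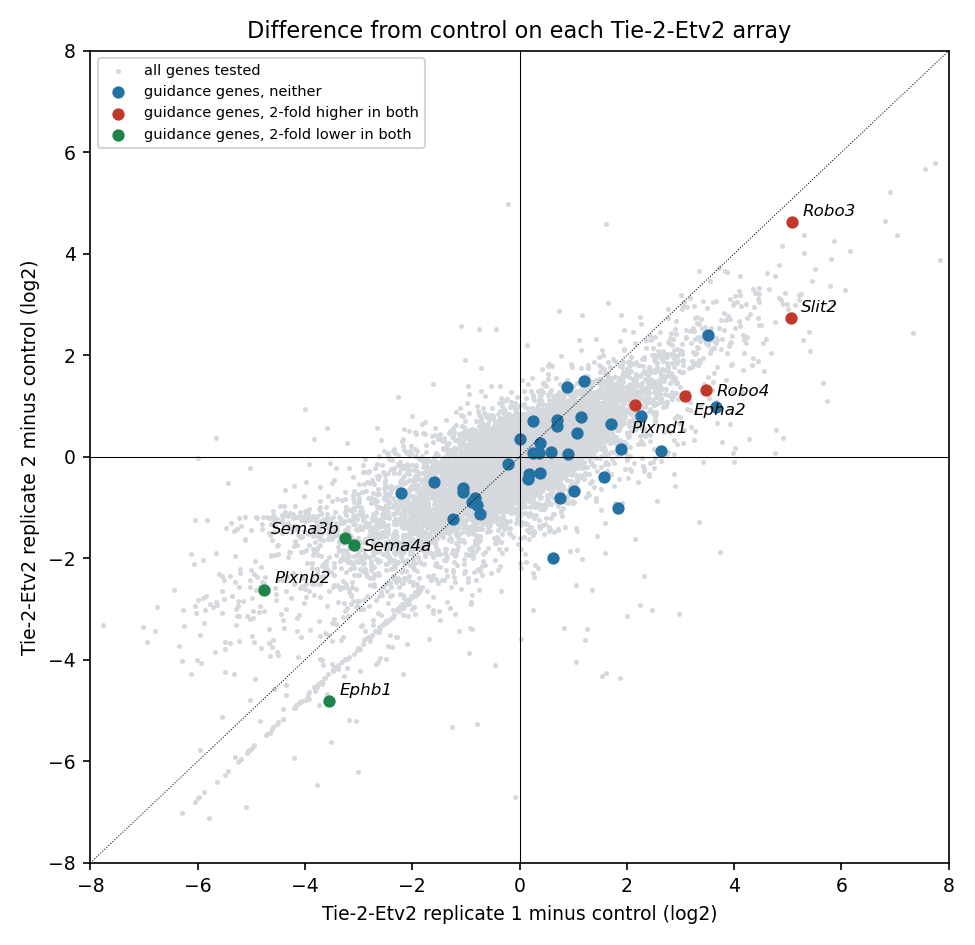
Log2 difference from the control on Tie-2-Etv2 replicate 1 (horizontal) and replicate 2 (vertical) for all 19583 genes tested (grey) and the 46 guidance genes (coloured). Positions use values not above background as measured. Colours show whether both arrays were 2-fold apart from the control once such values were raised to the lowest detected level. Sema5b, Epha7 and Efna2 are therefore coloured as neither, though 2-fold apart as measured. Robo3, Slit2, Robo4, Epha2 and Plxnd1 lie in the upper right and Ephb1, Plxnb2, Sema3b and Sema4a in the lower left; the dotted line marks equal differences.

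Both differences are taken from the same control array. Replicate 1 lay further from the control than replicate 2 for 33 of 46 members (71.7%), against 67.2% of all genes tested. The median difference of the members was 0.61 on replicate 1 and 0.06 on replicate 2, and that of all genes 0.08 and 0.05. Taken alone, replicate 1 had 16 members (34.8%) at least 2-fold higher, against 8.54% of all genes, and 7 (15.2%) lower, against 8.52%. Replicate 2 had 7 (15.2%) higher, against 3.85%, and 7 (15.2%) lower, against 7.32%.

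The probes of 4 members, Sema4c, Ephb3, Epha5 and Sema6d, stood apart from the rest by their sequence. Of the 5 members with the highest mean of control level and Tie-2-Etv2 mean level, 3 were Sema4c, Ephb3 and Epha5, beside Plxnd1 and Plxnb2; signals of different probes do not rank their genes. Each of the 4 holds at least 12 bases of alternating G and T, and a stretch of 30 of the 60 probe bases is shown with the repeat in capitals.
Sema4c: aaTGTGTGTGTGTGTGTGTGTGTGTtgtaa
Ephb3: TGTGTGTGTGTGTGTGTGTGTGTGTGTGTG
Epha5: gaaatTGTGTGTGTGTGTGTGTGTGcgtgc
Sema6d: agaggggcgaGTGTGTGTGTGTGTGTGTGT
Sema4c was at 3.56 in the control, 2.72 on replicate 1 and 2.76 on replicate 2, Ephb3 at 3.04, 2.16 and 2.15, Epha5 at 1.92, 1.12 and 0.98, and Sema6d at -0.09, -0.83 and -1.22. Their mean log2 differences lay close together: -0.82 for Sema4c, -0.89 for Ephb3, -0.87 for Epha5 and -0.94 for Sema6d. Across the array 122 probes (0.219%) hold such a GT repeat, and 119 of these were above background on all 3 arrays. In 117 of the 119 the Tie-2-Etv2 mean was below the control, with a median of -0.80 and quartiles of -0.86 and -0.73. Probes with the complementary CA repeat went the other way: 54 of 56 were above the control, with a median of 1.31. Over all 22764 probes detected on the 3 arrays the median was 0.10, with quartiles of -0.17 and 0.33.

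The second Epha5 probe and the second Sema6d probe hold no such repeat, and neither was above background on any array. Sema4c and Ephb3 had 1 probe each. The values of these 4 probes are therefore given as those of repeat-bearing probes and not as levels of the genes; whether the repeat sets the signal was not tested. The repeat letters thus moved with the difference between the control and both Tie-2-Etv2 arrays, and whether probe sequence bears on the other members' differences was not tested either. Without them 42 members remained, the counts of 5 higher and 4 lower were the same, and the median was 0.37.

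**Figure D3:**
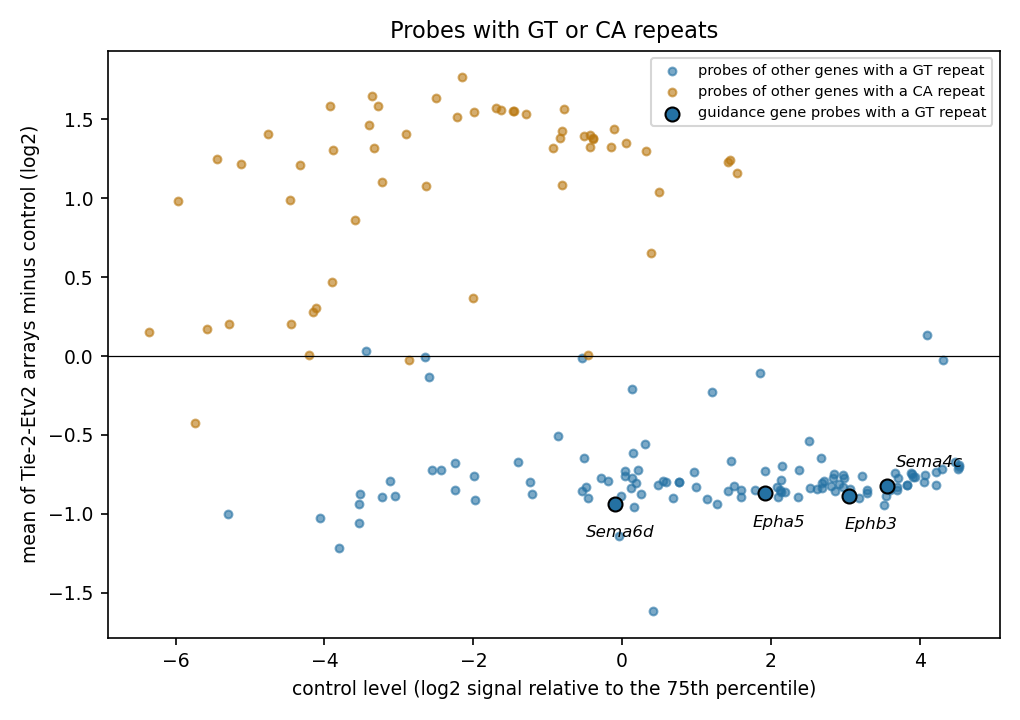
Mean Tie-2-Etv2 minus control log2 difference against the control level (log2 signal relative to the 75th percentile) for probes above background on all 3 arrays that hold a GT repeat (blue) or a CA repeat (ochre). The 4 guidance gene probes, outlined, lie between -0.94 and -0.82 within the band of GT probes whose median is -0.80, while CA probes have a median of 1.31.

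Partners outside the name pattern were read from a list of 50 genes, of which 43 were tested, 4 (9.3%) were 2-fold higher in both arrays and 7 (16.3%) lower, against the 3.17% and 5.15% of all genes. Cd72 and Rgmb, among the lower ones, were detected in the control alone, so the filter set their direction. Arhgef12, also lower and undetected on replicate 1, passed through the control alone, which favoured a lower value. Among 8 tested co-receptors 0 were higher and 4 lower. Nrp1, the neuropilin of class 3 semaphorins and VEGF, was at -3.55 in the control, -5.87 on replicate 1 and -5.27 on replicate 2, a log2 difference of -2.02 ± 0.41 (SE, adjusted p = 0.276 in limma). Nrp2, its relative, was at -1.09, -0.02 and -0.62 on the same arrays. The 2 neuropilins thus lay on opposite sides of the control.

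Cd72, a receptor of Sema4d on B cells and macrophages, was at -5.54 in the control and above background on neither Tie-2-Etv2 array. Timd2, which binds Sema4a, was 5.75-fold and 2.02-fold lower. Neo1, a receptor of netrins and of repulsive guidance molecules, was 2.08-fold and 3.13-fold lower. Rgmb, one of those molecules, was at -5.77 in the control and above background on neither Tie-2-Etv2 array. Flrt3, a ligand of Unc5 receptors, was 10.2-fold and 2.01-fold higher. Dcc, the netrin receptor, was at -0.72, -0.37 and 0.12 on the 3 arrays.

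Among 32 tested intracellular partners 3 were higher and 2 lower, with a median of -0.05. Tiam1, a Rac activator downstream of ephrins, was at -4.90 in the control, -3.18 on replicate 1 and -3.47 on replicate 2. Mical3, of a family that acts behind plexins, was at -7.08, -5.41 and -5.83, and Nck2, an adaptor of Eph receptors, at -2.08, -0.48 and -1.02. Their log2 differences were 1.57, 1.46 and 1.33. Arhgef12, whose product binds B-type plexins, was at -4.52 in the control, 2.78-fold lower on replicate 2 and undetected against background on replicate 1. Dpysl2, which encodes the semaphorin mediator CRMP2, was 2.72-fold and 2.63-fold lower. Arhgef15, an endothelial gene linked to Eph receptors, had a log2 difference of -0.87, and its probe too holds a GT repeat.

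Cell type markers differed between the same arrays. Over all genes tested, 3.17% were 2-fold higher in both arrays and 5.15% were 2-fold lower. Of 17 tested endothelial markers 12 were 2-fold higher in both arrays and 0 lower; the summed level of the list, in percent of the 75th percentile, was 1165 in the control, 5718 on replicate 1 and 2760 on replicate 2, and the median difference was 2.51 and 1.36 on the replicates. All 18 on the list were above background on replicate 1, 17 on replicate 2 and 14 in the control. All 12 tested macrophage markers were 2-fold lower in both arrays, with summed levels of 7636, 507 and 1754 and median differences of -5.21 and -2.75. All 10 visceral endoderm markers were 2-fold lower too, with medians of -4.48 on replicate 1 and -1.24 on replicate 2, as were 6 of 9 tested mesenchyme markers and 4 of 6 erythroid ones. Of 8 granulocyte and mast cell markers 6 were 2-fold higher, with summed levels of 1880 in the control, 5162 on replicate 1 and 5126 on replicate 2, and of 6 megakaryocyte markers 2 were higher and 1 lower. Of 10 neural markers, Snap25, whose probe holds a CA repeat, was higher and Elavl4 lower, and the other 8 were not tested. Among the markers counted as higher, Flt4, Sox17, Sox18 and Ltf entered the test through the Tie-2-Etv2 arrays alone. Among those counted as lower, Timd4, Dcn and Lum were detected in the control alone. The filter thus set the direction of these genes. Foxa2, undetected on replicate 1, also passed through the control alone, which favoured a lower value. Visceral endoderm, mesenchyme and maturing red cells do not carry CD45, 1 of the 2 proteins of the sort. The purity of the sort was not tested for these or the other listed cell types. The part of the listed cell types in the values of Slit2, Robo3, Robo4, Epha2, Plxnd1, Plxnb2, Sema3b, Sema4a and Ephb1 was not tested.

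**Figure D4:**
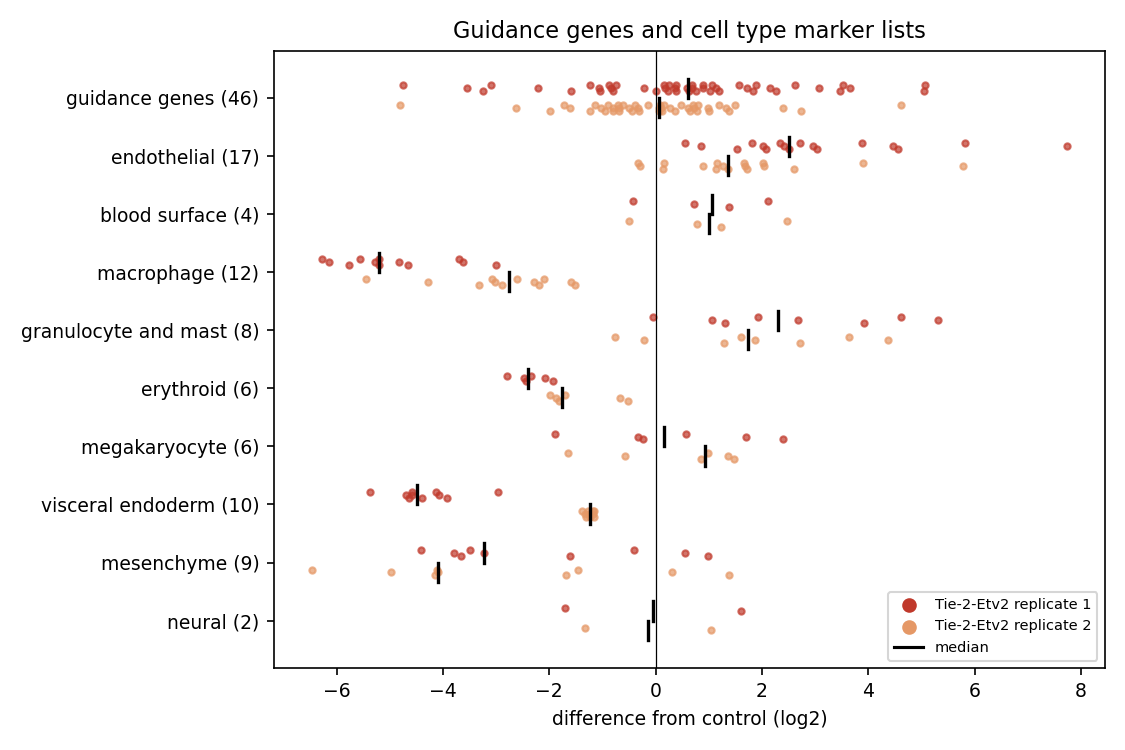
Log2 difference from the control on Tie-2-Etv2 replicate 1 (red) and replicate 2 (orange) for each tested guidance gene and each tested gene of the cell type marker lists, with the median of each array as a black bar and the number of genes in brackets. The guidance genes spread around 0 with medians of 0.61 and 0.06, while the endothelial medians are 2.51 and 1.36 and the macrophage medians -5.21 and -2.75.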

How the data were processed

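The arrays were 1-colour Agilent slides of design 028005. Per the file headers, Feature Extraction 10.7.3.1 (10.7 per the submitters' processing notes) made the intensity values, removing background and giving dim spots a surrogate. A table of log2 values deposited by the authors does not state its scale. Its differences between arrays equalled those of the log2 processed signal, within 0.01 and apart from a constant per array (0.756 and -0.0161), in 100% of 55668 probes, and each row was centred on its median; the column medians were 0, 0.136 and 0. It served as an alternative.

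Control spots and 168 to 174 outlier spots per array were removed; saturated spots numbered 0. Log2 processed signals were averaged per probe, and each array's 75th percentile over the 22764 probes detected on all 3 arrays was subtracted. A gene was represented by its tested probe with the highest mean level. Names were updated through the RefSeq table (26575 probes by accession, 2602 by symbol, 492 by synonym; 25999 kept the file's name). Differences were tested with limma 3.58.1 in R 4.3.3, two-sided, with Benjamini-Hochberg adjustment over all probes tested; 1 residual degree of freedom rose to 3.93 with moderation. The fit was tested on simulated data. The number of arrays limits the precision.

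Values are given, by rule, for members 2-fold apart in both arrays, those with a bound of at least 2-fold, the 5 of highest level (mean of control and Tie-2-Etv2 mean) and those whose probes differ in sign; of the partners, those 2-fold apart. Other genes were named after their values were seen. The members and lists were chosen with earlier results of these data known. Alternatives were other scalings, normexp, filters, the deposited table, no floor, probe averaging, a variance trend and leaving out each replicate.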

Additional observations from a re-analysis of the deposited data

Results flagged for a closer look

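Probes of 7 members were not tested because they were above background on a single Tie-2-Etv2 array and not in the control; that choice nearly fixes a value above the control. The sizes here are measured log2 differences from a control value that was not above background, each followed by the size left when that value is raised to the lowest detected level of the control array. On replicate 1, a second Efna3 probe was 3.37 above the control (1.24 after raising), another Epha7 probe 4.56 (2.61) and a second Ephb6 probe 0.97 (0.51). On replicate 2, a second Ephb4 probe was 0.62 above (0.16), and the probes of Ntn3, Sema5a and Slit1 were 0.31 (0.29), 1.13 (0.0086) and 0.71 (0.62) above.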

How the results depend on the processing

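The smallest design limits every value: 1 control array, whose own spread is unknown, and 2 Tie-2-Etv2 arrays. No paired analysis was possible because the control group holds 1 sample with no replicate number. The number of probes passing limma's adjusted test was 0 in the main analysis and with both other scalings, the deposited table, probes detected on all 3 arrays and a variance trend, but rose to 700 under normexp and to 551 without the filter on low signals. The prior df that limma estimated was 2.93 in the main analysis, unbounded under normexp and 20.1 without the filter. With normexp, Epha2, Plxnb2, Plxnd1, Robo3, Robo4, Sema4a and Slit2 passed, and with no filter Ephb1, Plxnb2, Robo3 and Slit2; the cause was not tested. Members 2-fold higher in both arrays numbered 5, and 2 with normexp; those lower numbered 4, and 2 with normexp or with probes detected on all 3 arrays, where fewer genes are tested. On a single replicate the higher members numbered 7 to 16 and the lower 7 on each. The deposited table and the values with no floor gave 7 and 5. The median of the members ranged from 0.06 to 0.61. Of 14 named members, Plxnc1 changed sign, to 0.11 with its probes averaged, and the other 13 kept theirs under all alternatives run. Over these alternatives the log2 difference of Ephb1 shrank to -0.72, Sema3b to -0.17, Robo3 to 1.48 and Plxna4 to 0.53. Among members outside these 14, the mean differences of Efna2, Efna5, Sema3f, Sema6a and Unc5b changed sign under normexp. Leaving out GT repeat probes was chosen after the data were seen.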
